A study of Mus musculus with 2 samples.

Results

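The embryonic globin genes of the mouse, *Hbb-y*, *Hbb-bh1* and *Hba-x*, were described in cells of the fetal liver. They are 3 of the 27998 genes in the count table and were chosen by symbol, with earlier results of these data known. The cells came from fetal livers of C57BL/6 embryos at e13.5, pooled, untreated, and partly depleted of cells carrying Ter119, a surface marker of maturing erythroid cells. An equal number of Ter119+ cells was added back, so the proportions of cells are not those of the liver. CITE-seq was used, in which transcripts and DNA-barcoded antibodies are counted in the same cells, with 1 cDNA library and 1 antibody library that share all 7863 cell barcodes. There was 1 pool and no replicate, cells are not replicates, and a cell cannot be assigned to an embryo, so no p-value is given. The 95% intervals given in brackets reflect only the error of counting.

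Haemoglobin joins α-like and β-like chains. *Hbb-y* and *Hbb-bh1* encode embryonic β-like chains and *Hba-x* the embryonic α-like chain ζ. In the mouse these genes are known mainly from primitive erythroid cells, which arise in the yolk sac and circulate in the embryo, while the fetal liver makes definitive erythroid cells that use the adult genes *Hba-a1*, *Hba-a2*, *Hbb-bs* and *Hbb-bt*. *Hbb-bh1* precedes *Hbb-y* during primitive maturation. CD71, the transferrin receptor, is high on dividing erythroid progenitors and early erythroblasts and is lost late in maturation.

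The table held 58606632 unique molecular identifiers (UMIs), each counting 1 captured transcript, with a median of 5707 UMIs per cell (2510–38047). Quality limits and doublet removal left 7244 cells, of which 6424 were low for the lineage antibodies. Their Ter119 and CD71 antibody counts placed 1510 of them in S0-low and 1054 in S0-medium, the early progenitors, 612 in S1 and 1297 in S2, 838 in S3 and 898 in S4/S5, the maturing erythroblasts, and 215 in no stage. Ter119 was low up to S1, intermediate in S2 and high from S3, and CD71 rose from S0-low to S1 and was low again in S4/S5. The erythroid label was checked with *Slc4a1*, the anion exchanger of the red cell, which averaged 168 CPM (UMIs of the gene per 1000000 UMIs of a cell) in S1 and 766 CPM in S3. In S0-low *Slc4a1* averaged 13.4 CPM. These averages leave out the cells with mostly embryonic β-globin that are set apart below. Of the S0-low cells 30.3% lay in clusters named hepatocyte-like, megakaryocyte-like, myeloid-like or macrophage-like. *Slc4a1* averaged 19.9, 14.1, 25.8 and 34.2 CPM in these types, in that order, so it does not mark S0-low as erythroid. These 4 types held 184, 147, 612 and 81 cells, and the myeloid-like cells also had progenitor RNA, with 79.9 CPM of *Kit* and 116 CPM of *Gata2*. Clusters left unnamed can hold non-erythroid cells too, so the 30.3% may be too low.

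On mm10 (GRCm38.p6) *Hbb-y* (ENSMUSG00000052187) spans chr7:103851754-103853207 and *Hbb-bh1* (ENSMUSG00000052217) chr7:103841638-103843162, upstream of adult *Hbb-bs* at chr7:103826523-103827928 and *Hbb-bt* at chr7:103812524-103813923. *Hba-x* (ENSMUSG00000055609) spans chr11:32276600-32278116 and precedes adult *Hba-a1* at chr11:32283672-32284486 and *Hba-a2* at chr11:32296492-32297310. Of 10 globin genes, 9 had a promoter in the RefSeq table used, among them *Hbb-y* and *Hba-x*. The 150 bases before the RefSeq start are shown for these 2 genes and for 1 adult gene of each locus, because *Hbb-y* and *Hba-x* were high in the same few cells, in which the adult β-globin genes were low. Capitals mark matches, on either strand, to the 5 short motifs spelled out after the sequences, which were chosen with these sequences in view. The windows lie at chr7:103853208-103853357 (minus), chr11:32276450-32276599 (plus), chr7:103827929-103828078 (minus) and chr11:32283522-32283671 (plus), and each reads 5′ to 3′ along the gene.
Hbb-y: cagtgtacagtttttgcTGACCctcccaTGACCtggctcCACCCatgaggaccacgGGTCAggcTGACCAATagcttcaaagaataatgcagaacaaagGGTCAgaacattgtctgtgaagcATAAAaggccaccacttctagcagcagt
Hba-x: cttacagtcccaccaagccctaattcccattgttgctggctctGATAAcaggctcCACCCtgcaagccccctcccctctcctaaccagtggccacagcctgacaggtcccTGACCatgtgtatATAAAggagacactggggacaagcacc
Hbb-bs: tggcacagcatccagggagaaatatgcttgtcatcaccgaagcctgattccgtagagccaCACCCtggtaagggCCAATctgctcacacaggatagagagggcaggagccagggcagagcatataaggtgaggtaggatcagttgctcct
Hba-a1: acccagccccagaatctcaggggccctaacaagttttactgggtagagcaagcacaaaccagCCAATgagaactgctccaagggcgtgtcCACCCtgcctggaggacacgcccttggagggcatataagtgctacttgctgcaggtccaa

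CACCC, the core of the site of KLF-type factors, occurred once in each of the 4 windows, and 37.4% of all 32851 RefSeq promoter windows of this length held it. CCAAT occurred in *Hbb-y*, *Hbb-bs* and *Hba-a1* and in 24.5% of all windows. GATAA, the core read by GATA factors, occurred in *Hba-x* and in 13.3% of all windows. ATAAA, as in a TATA box, occurred in *Hbb-y* and *Hba-x* and in 24.1% of all windows. The windows of *Hbb-bs* and *Hba-a1* hold TATAAG, a similar stretch that this motif misses and that is not in capitals. The lack of ATAAA there thus does not mean that they lack a TATA box. TGACC, part of the sequence read by many nuclear receptors, was found 5 times in *Hbb-y* and 1 time in *Hba-x*, and 23.1% of all windows held it. At least 5 copies were held by 8 windows (0.0244%), that of *Hbb-y* included. The limit of 5 was the count of *Hbb-y* itself, so this share is no test. These are matches of letters and were not tested as sites.

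Reads of the members can be told apart from those of other globin genes where they are longer than the identical runs that their transcripts share. The coding sequences of *Hbb-y* and *Hbb-bh1* have 444 bases each and were identical at 339 aligned bases (76.4%), with a longest shared run of 26 bases. *Hbb-y* and the adult β-globin transcripts were identical at 74.3% and 74.1% of the bases, with a longest run of 22 bases. *Hba-x* matched *Hba-a1* at 62.0% of 429 bases, with a longest run of 18 bases. The adult copies of each locus were 99.8% identical, so their counts are also given as sums. Their longest shared runs were 430 bases for β- and 415 for α-globin, and a read within such a run cannot be assigned to 1 copy. Whether such reads were left out of the counts was not tested. Any such loss would raise the embryonic shares given below.

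*Hbb-y* and *Hba-x* were held almost wholly by a small set of cells, and *Hbb-bh1* was not. Cells were set apart in which *Hbb-y* and *Hbb-bh1* made up at least 50% of the β-globin UMIs, among cells with at least 20 such UMIs. There were 79 such cells of 7244 (1.09%, 0.864–1.36), called embryonic-globin cells below. They held 94.9% of the 256249 *Hbb-y* UMIs, 93.9% of the 12301 *Hba-x* UMIs and 17.0% of the 19472 *Hbb-bh1* UMIs. For comparison, the 72 cells with the most UMIs of a gene, 1% of all, held 90.8% of *Hbb-y*, 91.7% of *Hba-x* and 54.1% of *Hbb-bh1*, but 6.04% of the adult β-globin and 5.40% of the adult α-globin UMIs.

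Of the 7024 cells with at least 20 β-globin UMIs, 6886 (98.0%) had an embryonic share under 10%, 59 had one from 10% to 50% and 79 were at or above the limit. Of the 59 between, 21 held at least 10 *Hbb-bh1* UMIs, and the other 38 had a median of only 30 β-globin UMIs, against 3300 in the embryonic-globin cells. The lowest shares inside the limit were 64.2%, 76.8% and 80.4%, and 59 of the 79 cells were at 90% or more. The highest shares outside it were 42.5%, 29.7% and 22.2%. The share chose these cells, so their *Hbb-y* and *Hbb-bh1* values are a description. *Hba-x* was not used, and its lowest count in the 79 cells was 37 UMIs, above all but 1 of the 7165 other cells, whose highest counts were 123 and 20.

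*Hbb-y* was the main β-like gene of the embryonic-globin cells. Its count ranged from 959 to 5123 UMIs with a median of 2934, and it exceeded *Hbb-bh1* in 79 of 79 cells. *Hbb-bh1* ranged from 1 to 270 UMIs with a median of 27, and *Hba-x* from 37 to 394 with a median of 127. Summed over the cells there were 0.0136 (0.0132–0.0141) *Hbb-bh1* UMIs and 0.0475 (0.0466–0.0484) *Hba-x* UMIs for each *Hbb-y* UMI. Embryonic transcripts were 90.5% (90.4–90.6) of the β-globin UMIs, a share that the choice of cells set to be high. *Hba-x*, which the choice did not use, was 21.0% (20.6–21.3) of the α-globin UMIs, and 6.06% to 49.2% in single cells. The 2 shares are therefore no comparison of the loci.

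**Figure D1:**
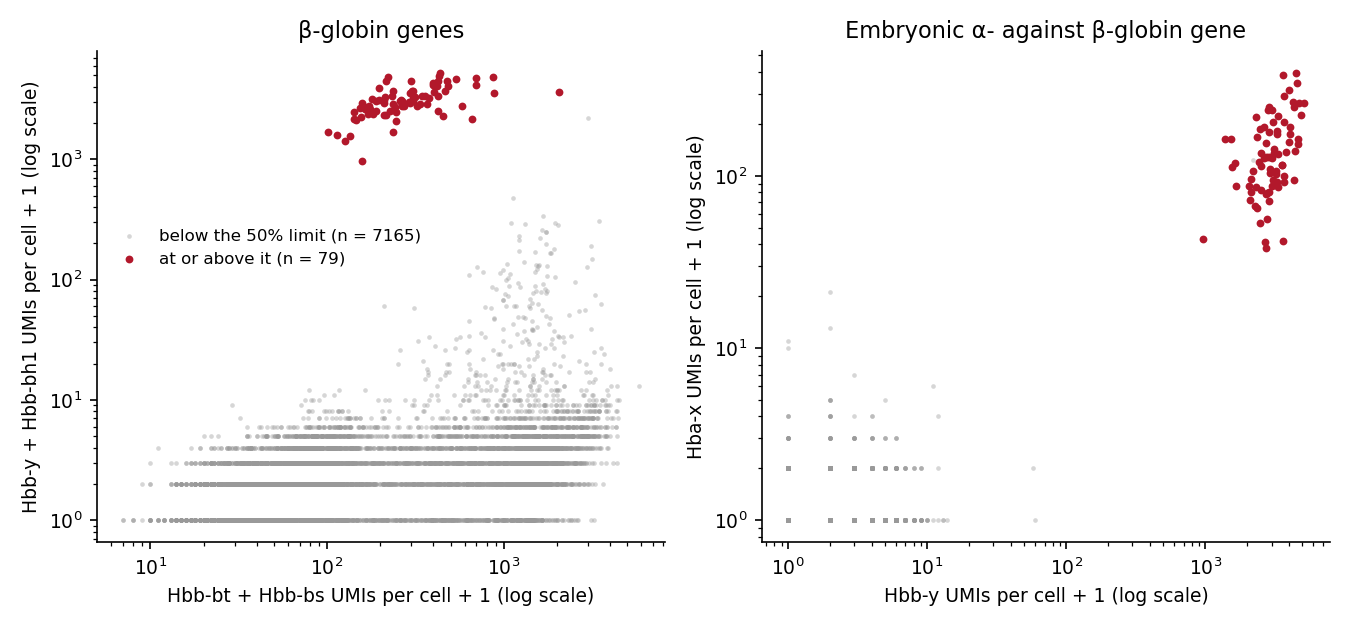
Each point is 1 of 7244 cells, plotted on log axes by UMIs + 1. Left, *Hbb-y* + *Hbb-bh1* against the adult β-globin genes *Hbb-bt* + *Hbb-bs*, and right, *Hba-x* against *Hbb-y*; the 79 red cells at or above the 50% limit lie apart from the 7165 grey ones, except for 1 grey cell with 2220 *Hbb-y* UMIs.

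Among the 6 stages, embryonic-globin cells were most frequent in those with high Ter119. S0-low held 3 of them among 1510 cells, S0-medium 0 of 1054, S1 1 of 612, S2 3 of 1297, S3 14 of 838 (1.67%, 0.916–2.79) and S4/S5 41 of 898 (4.57%, 3.30–6.14). The share was also high, at 14 of 215 (6.51%, 3.61–10.7), in the cells of no stage, all of which had intermediate Ter119 counts, from 25 to 88, with CD71 counts of 17 to 763 that lay below those of S2. Also of this kind were 3 lineage-high cells, 1 of them macrophage-like. The intervals of S3 and S4/S5 cover counting error in 1 pool only, and the S3 count depends on the gates. It was 30 of 1883 cells with log10 antibody counts and 16 of 1082 with a Gaussian mixture. With the centered log ratio within cells it was 39 of 1440. The 0 in S0-medium allows a share of up to 0.349%. These shares depend on the Ter119 depletion and add-back.

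The median CD71 count of the 79 cells was near that of S4/S5, and their median Ter119 count nearer that of S3. CD44, an adhesion receptor that erythroblasts lose as they mature, was lower than in both. Ter119 and CD71 also set the stages. The 79 cells had median antibody counts of 128 for Ter119, 341 for CD71 and 8 for CD44 (quartiles 4–10). The other S4/S5 cells had medians of 156, 296 and 42 (CD44 quartiles 30–59). The other S3 cells had medians of 124, 1402 and 78. The embryonic-globin cells had a median of 463 genes at 4975 UMIs, against 637 genes at 3889 UMIs in the other S4/S5 cells. All globin genes together took a median of 82.3% of their UMIs, against 66.7%, and mitochondrial UMIs 0.188% against 1.11%. Single values among the 79 cells reached 3397 genes and a CD44 count of 1842, and the lowest globin share was 21.5%. Called doublets had been removed before the 79 cells were counted, among them 1 at or above the limit. Whether any of the 79 droplets held more than 1 cell was not tested further. In a clustering that left the globin genes out of the variable genes, 76 of the 79 cells fell into 1 cluster of 526 cells. The other genes were scaled by totals that included globin, so this clustering was not independent of the globin load.

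Over all cells the members were highest in S4/S5 among the stages, and the embryonic-globin cells held most of the *Hbb-y* and *Hba-x* there. From S0-low through S0-medium, S1, S2 and S3 to S4/S5, *Hbb-y* averaged 1472, 155, 1051, 1783, 9866 and 28164 CPM. The median cell had 1 *Hbb-y* UMI in the stages up to S2 and 2 in S3 and S4/S5, so these means are not those of a usual cell. *Hba-x* averaged 58.8, 8.01, 96.5, 65.0, 469 and 1269 CPM in the same order, and its median was 0 UMIs in every stage. The 3 cells in S0-low raised its *Hbb-y* from 160 to 1472 CPM and its *Hba-x* from 5.12 to 58.8 CPM. The single such cell of S1 raised *Hbb-y* there from 153 to 1051 CPM.

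*Hbb-bh1* averaged 45.6, 34.1, 68.4, 481, 1480 and 2003 CPM along the same 6 stages. Without the embryonic-globin cells it was 16.4, 34.1, 59.2, 475, 1404 and 1751 CPM, so its order along the stages was kept apart from the first step. In the cells of no stage *Hbb-y*, *Hbb-bh1* and *Hba-x* averaged 39605, 1491 and 2365 CPM, above the *Hbb-y* and *Hba-x* levels of the 6 stages and the 4 types.

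**Figure D2:**
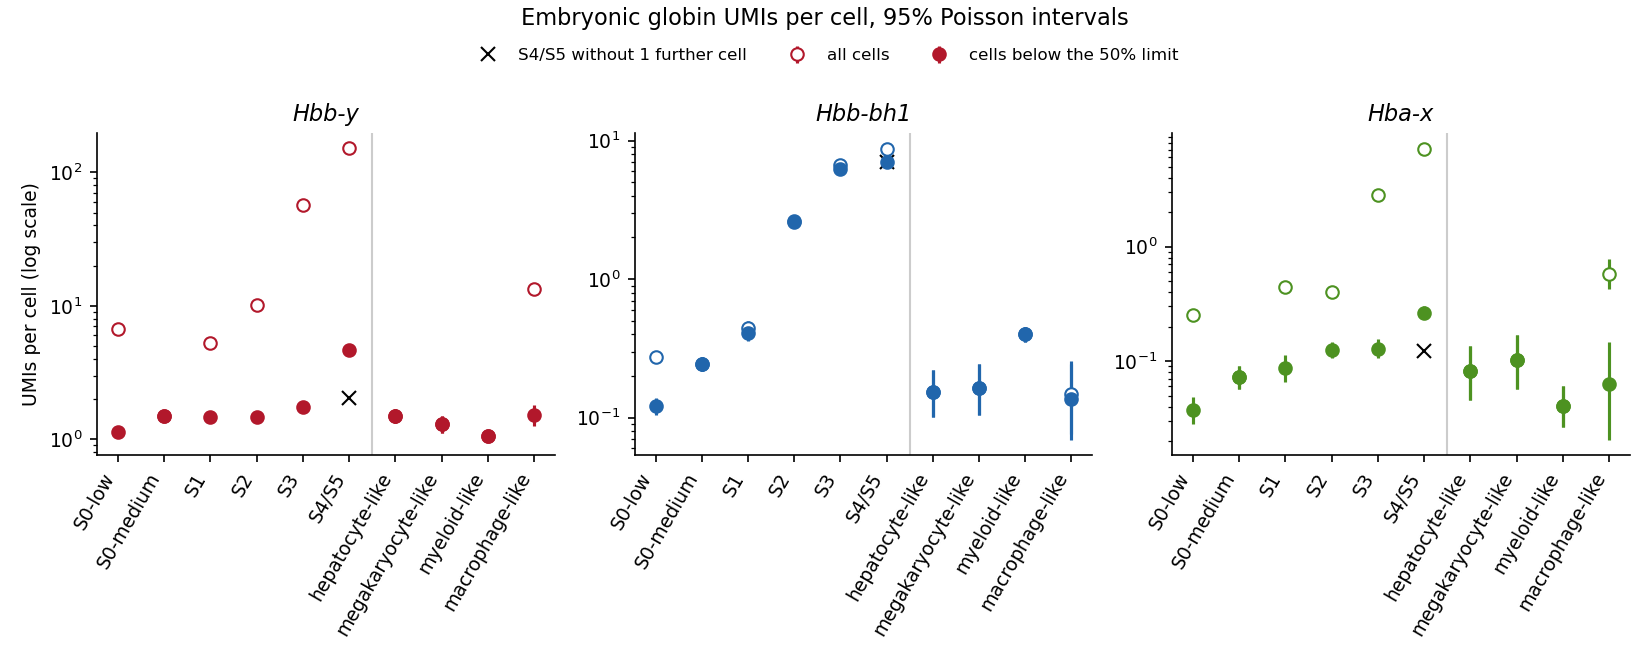
UMIs per cell (log axis) of each member in the 6 stages and 4 non-erythroid types, over all cells (open) and below the 50% limit (filled), with 95% Poisson intervals; the cross leaves out 1 more cell of S4/S5. *Hbb-y* and *Hba-x* fall to low levels without the 79 cells, to 1.75 and 0.129 in S3, and *Hbb-bh1* stays at 6.20.

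Below the limit *Hbb-y* was low and nearly level in UMIs per cell. S0-low had 1.13 (1.08–1.19), S0-medium 1.49, S1 1.47, S2 1.46 and S3 1.75 (1.66–1.84). S0-medium, S1 and S2 did not differ beyond counting error. S4/S5 had 4.64 per cell, but 1 exceptional cell, at an embryonic share of 42.5%, held 2220 of the 3973 UMIs, and without it the value was 2.05. Scaled to the cell's total, *Hbb-y* was 160 CPM in S0-low, 153 in S1, 360 in S3 and 794 in S4/S5 (491 without that cell), while the median depth per cell was 6154, 10154, 4496 and 3889 UMIs. The S3 level was thus 2.25 times (2.08–2.43) that of S0-low in CPM and 1.54 times in UMIs per cell.

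Cells that should lack globin also held *Hbb-y* UMIs. RNA set free from broken cells can be counted in any droplet, so the level of the hepatocyte-like cells is set beside each value. They had 1.51 (1.33–1.69) *Hbb-y* UMIs per cell at a median depth of 12969, megakaryocyte-like cells had 1.30, macrophage-like cells below the limit 1.51 and myeloid-like cells 1.06. A *Hbb-y* UMI was seen in 61.0% (58.5–63.5) of S0-low and 72.3% (65.2–78.6) of hepatocyte-like cells. With each cell thinned to 2000 UMIs these shares were 24.6% and 23.4%, while S0-medium had 25.3%, S1 26.0%, S2 36.2%, S3 49.9% and S4/S5 64.4%. The levels of S0-low and S0-medium, 1.13 and 1.49 per cell, did not exceed that of hepatocyte-like cells, so no expression is read from them. S3, at 1.75 per cell, lay above the myeloid-like level, but its interval overlapped that of hepatocyte-like cells. After thinning, its share lay above theirs. Thinning cuts the counts of the deeper hepatocyte-like cells more (median depth 12969, against 4496 in S3). It therefore cannot separate free RNA from expression, and no expression is read from S3 either. S4/S5 without the exceptional cell had 2.05 per cell at a lower median depth. This lay above the hepatocyte-like interval and above the levels of the other named types. The part of free RNA in it was not tested. The counts of S2 and S3 cells varied little more than Poisson counting gives, with a variance 1.32 and 1.24 times the mean.

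*Hba-x* was scarcer still below the limit. S0-low had 0.0372 (0.0281–0.0483) UMIs per cell, S0-medium 0.0721, S1 0.0867, S2 0.126 and S3 0.129 (0.105–0.156). Hepatocyte-like cells had 0.0815 (0.0456–0.134), so the intervals of the stages from S0-medium to S3 overlapped theirs. S4/S5 had 0.265, of which the same 1 cell gave 123 of 227 UMIs, and 0.121 without it. The share of cells with an *Hba-x* UMI was 3.58% in S0-low, 10.1% in S3 and 11.1% in S4/S5, against 7.61% (4.22–12.4) in hepatocyte-like cells. After thinning, the shares were 1.26%, 4.25% and 5.60%, against 0.543%. The ratio of *Hba-x* to *Hbb-y* UMIs lay between 0.0328 and 0.0860 in the stages, at 0.0542 (0.0299–0.0909) in hepatocyte-like cells and at 0.0475 in the embryonic-globin cells.

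A single cell below the limit stood apart and was looked at after its values were seen. It was the S4/S5 cell at 42.5%, with 2220 *Hbb-y*, 5 *Hbb-bh1* and 123 *Hba-x* UMIs, beside 2026 *Hbb-bs*, 986 *Hbb-bt*, 776 *Hba-a1* and 649 *Hba-a2* UMIs. It held 8533 UMIs and 801 genes, with antibody counts of 291 for Ter119 and 725 for CD71. Called doublets had been removed beforehand, and whether its droplet held more than 1 cell was not tested further.

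*Hbb-bh1* was higher at each later stage among the cells with mostly adult β-globin, and a minority of cells with at least 10 *Hbb-bh1* UMIs held most of it. Below the limit S0-low had 0.121 (0.104–0.140) UMIs per cell, S0-medium 0.245 (0.216–0.277), S1 0.406 (0.357–0.460), S2 2.57 (2.48–2.66), S3 6.20 (6.03–6.37) and S4/S5 7.03 (6.85–7.21). Without the cells of at least 10 *Hbb-bh1* UMIs, and without the exceptional cell, S2 had 0.744 (0.697–0.794), S3 1.19 (1.12–1.27) and S4/S5 1.13 (1.05–1.201), so the last step was not seen outside those cells. S1 then had 0.283 (0.242–0.328), from 3 cells fewer. With all these cells each stage lay above the one before beyond counting error, which does not cover the uneven spread over cells. Hepatocyte-like cells had 0.152 (0.101–0.220), and the intervals of S0-low and S0-medium overlapped theirs while that of S1 did not. Megakaryocyte-like cells had 0.163 and macrophage-like cells 0.138, while myeloid-like cells had 0.402, in which 4 of 612 cells with at least 10 UMIs took part. An *Hbb-bh1* UMI was seen in 10.8% of S0-low, 42.7% of S2, 60.8% of S3, 65.2% of S4/S5 and 13.6% of hepatocyte-like cells, or in 2.92%, 23.3%, 39.4%, 41.5% and 1.09% after thinning.

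Summed over cells, *Hbb-bh1* was below *Hbb-y* up to S1 and above it from S2 on. For each *Hbb-y* UMI there were 0.107 (0.0909–0.124) *Hbb-bh1* UMIs in S0-low, with 0.165 for S0-medium, 0.276 for S1, 1.75 (1.66–1.86) for S2 and 3.54 (3.34–3.76) for S3. In S4/S5 the ratio was 1.52, and 3.43 (3.25–3.62) without the exceptional cell. The cells with at least 10 *Hbb-bh1* UMIs decided this order, since without them and the exceptional cell the ratios were 0.507 (0.467–0.549) in S2, 0.688 (0.631–0.750) in S3 and 0.554 (0.510–0.601) in S4/S5. Cell by cell, *Hbb-bh1* exceeded *Hbb-y* in 21.1% of the S2, 29.6% of the S3 and 24.04% of the S4/S5 cells below the limit, and *Hbb-y* exceeded *Hbb-bh1* in 52.7%, 48.7% and 54.0%. In hepatocyte-like cells *Hbb-bh1* was the higher in 5.43% and *Hbb-y* in 67.9%. The summed ratio was 0.101 (0.0660–0.149) in hepatocyte-like cells and 0.0136 in the embryonic-globin cells. The *Hbb-y* UMIs per cell of S2 and S3 were near those of hepatocyte-like cells. The part of free RNA in these ratios and in their order was not tested.

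Most *Hbb-bh1* below the limit sat in few cells. Of the 7165 cells, 4843 had no *Hbb-bh1* UMI, 2108 had 1 to 9, 111 had 10 to 29, 64 had 30 to 99 and 39 had 100 or more, the highest 474. The 214 cells with at least 10 held 77.5% of the UMIs. In S3 they were 77 of 824 cells with 82.5% of the stage's UMIs, in S4/S5 51 of 857 with 84.9%, and in S2 62 of 1294 with 72.4%. No *Hbb-bh1* UMI was seen in 39.2% of S3 cells, where a Poisson spread of the same total would leave 0.204%. The median depth was 4812 UMIs in the 214 cells, 5190.5 in those with 1 to 9 and 6271 in those with 0, and within S3 it was 4815, 4723.5 and 4175.

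*Hbb-y* stayed low in the cells with most *Hbb-bh1*, and *Hba-x* was somewhat higher in S2. The 39 cells with 100 or more averaged 1.97 *Hbb-y* UMIs, the highest 5, and 0.128 *Hba-x* UMIs, the highest 1. In them *Hbb-bh1* made up a median of 10.0% of the β-globin UMIs and at most 29.7%, the rest being almost all adult. In S3 the cells with at least 10 had 1.91 (1.61–2.24) *Hbb-y* UMIs per cell, those with 1 to 9 had 1.91 and those with 0 had 1.50 (1.37–1.64). In S2 *Hba-x* was 0.581 (0.407–0.804) per cell in those with at least 10 and 0.107 (0.0844–0.133) in those with 0, and in S3 these values were 0.221 (0.129–0.353) and 0.0867 (0.0576–0.125). A single cell gave 20 of the 36 *Hba-x* UMIs of the S2 cells with at least 10 and another gave 12 of the 17 in S3. Without these cells the levels were 0.262 (0.150–0.426) in S2, still above that of the cells with 0, and 0.0658 (0.0214–0.154) in S3, which overlaps it. In S4/S5 they were 0.176 (0.0807–0.335) and 0.117 (0.0818–0.163), which overlap. In S3 the median Ter119 and CD71 counts were 127 and 1365 in those with at least 10 *Hbb-bh1* UMIs and 119 and 1427 in those with 0. In S2 the median Ter119 count was 61 against 48 and that of cKit, a receptor of progenitors, 17.5 against 26.

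**Figure D3:**
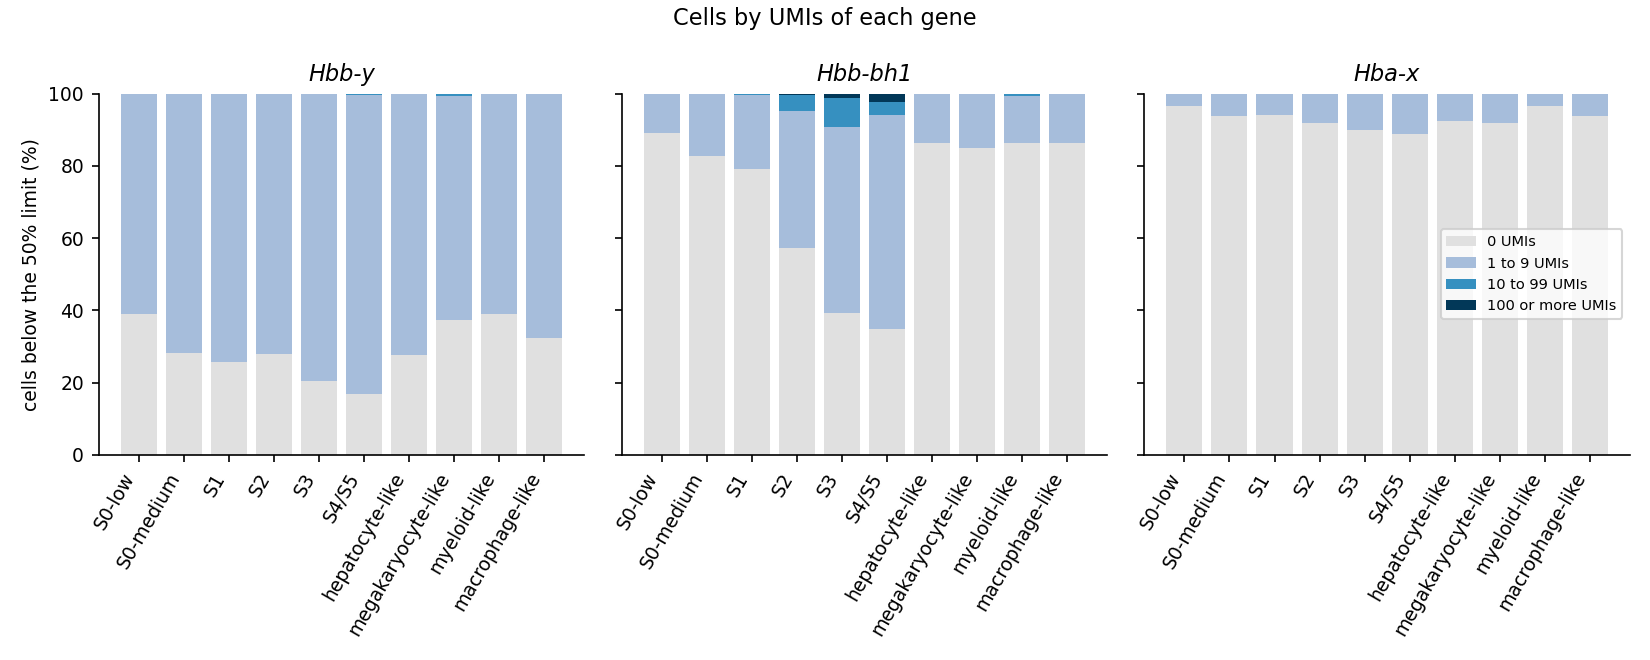
Percent of the cells below the 50% limit with 0, 1 to 9, 10 to 99 and 100 or more UMIs of each member, by population; all bars start at 0 and sum to 100%. *Hbb-bh1* alone has a visible class of 10 or more, with 62 S2, 77 S3 and 51 S4/S5 cells.

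The levels were also read along the antibody count, without stage borders. In 10 equal groups of lineage-low cells by Ter119, *Hbb-bh1* was 0.109 UMIs per cell in the lowest, 0.283 (0.244–0.328) in the third, 0.215 (0.181–0.254) in the fourth, 0.378 in the fifth, 1.68 in the sixth, 4.87 in the eighth, 9.30 (9.06–9.55) in the ninth and 5.38 (5.20–5.57) in the tenth. The peak thus came before the highest Ter119 counts, unlike the order of the stages. Cells with at least 10 *Hbb-bh1* UMIs numbered 61 in the ninth and 39 in the tenth group, and without them and the exceptional cell the values were 1.07 (0.989–1.16) and 1.33 (1.24–1.43). *Hbb-y* ran from 0.852 in the lowest group to 1.71 in the ninth, and *Hba-x* from 0.0264 to 0.126. The tenth group had 5.83 and 0.330, or 2.25 and 0.131 without the exceptional cell. Embryonic-globin cells numbered 0 in each of the lowest 2 groups, 1 in the fifth, 4 in the sixth, 11 in the seventh and the eighth and 23 in each of the last 2.

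Within the low-Ter119 cells, ordered by CD71, *Hbb-bh1* went from 0.0755 UMIs per cell in the lowest group to 0.413 in the ninth and 0.396 in the tenth. *Hbb-y* went from 0.686 to 1.52 and *Hba-x* from 0.0126 to 0.120. The median depth went from 4124.5 to 10027.5 UMIs per cell along the same groups, and its part in these gradients was not tested. In CPM *Hbb-y* was 143 in the lowest and 156 in the highest group, and *Hbb-bh1* 13.9 and 43.6.

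**Figure D4:**
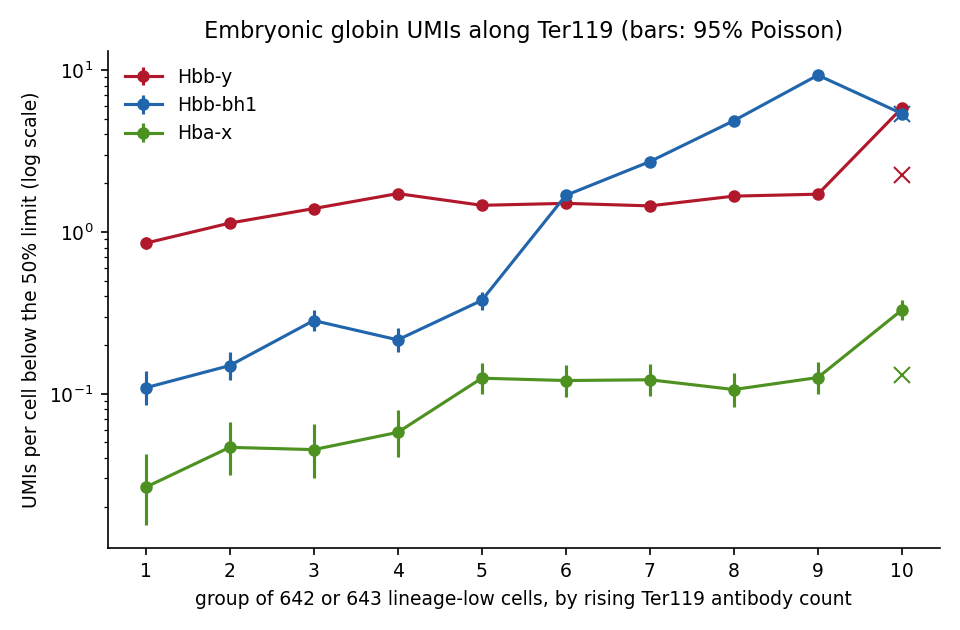
UMIs per cell of the members below the 50% limit (log axis) in 10 groups of 642 or 643 lineage-low cells by rising Ter119 count, with 95% Poisson intervals; crosses leave out 1 cell. *Hbb-bh1* crosses *Hbb-y* in the sixth group and is highest, at 9.30, in the ninth.

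Ratios of mean CPM between pairs of stages placed the members among all genes, where a gene counted as called at a ratio of at least 2 or at most 0.5 with at least 50 UMIs. From S0-low to S1, 0 of 3 members were called, with ratios of 0.714 (0.684–0.745) for *Hbb-y*, 1.50 (1.26–1.78) for *Hbb-bh1* and 1.64 (1.39–1.94) for *Hba-x*. Of 9577 genes, 3.63% were called higher and 20.3% lower, and their median ratio was 0.840. Below the limit 2 of 3 were called, *Hbb-bh1* at 3.61 (2.90–4.51) and *Hba-x* at 2.24 (1.46–3.45), and *Hbb-y* had 0.955 (0.869–1.05). The 3 embryonic-globin cells of S0-low and the 1 of S1 thus decided these calls. Without cells of at least 10 UMIs of the gene, 3 in S1 for *Hbb-bh1* and 1 in S1 for *Hba-x*, the ratios were 2.14 (1.68–2.73) and 1.86 (1.17–2.95), so 1 cell decided the call of *Hba-x*.

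From S1 to S3, 3 of 3 members were called higher, with ratios of 9.39 for *Hbb-y*, 21.6 for *Hbb-bh1* and 4.86 for *Hba-x*. Among 7593 genes 4.31% were called higher and 61.3% lower, with a median ratio of 0.416. Below the limit the ratios were 2.35 (2.14–2.58), 23.7 (20.5–27.4) and 2.30 (1.60–3.32). In UMIs per cell *Hbb-y* and *Hba-x* rose by less, and their S3 intervals overlapped those of hepatocyte-like cells. The median depth was lower in S3 than in S1, and its part in these ratios was not tested. At 23.7 *Hbb-bh1* exceeded each adult gene, at 8.99 for *Hba-a1*, 10.5 for *Hbb-bt*, 11.8 for *Hba-a2* and 11.9 for *Hbb-bs*, and its interval did not overlap theirs. This rested on the cells with at least 10 *Hbb-bh1* UMIs, without which the ratio was 7.21 (5.97–8.71). Taken from S0-low to S3 its ratio below the limit was 85.7 (72.2–102), against 35.3 to 42.1 for the adult genes, and 15.5 without the cells of at least 10 *Hbb-bh1* UMIs, an alternative chosen after the data were seen. In S0-low *Hbb-bh1* had 16.4 CPM, near the 14.4 CPM of hepatocyte-like cells, and no adult gene exceeded its hepatocyte-like level. These ratios thus start from levels not set apart from free RNA, whose part in them was not tested. From S3 to S4/S5, 2 of 3 were called higher, *Hbb-y* at 2.85 and *Hba-x* at 2.70, and *Hbb-bh1* had 1.35 (1.31–1.40). Of 5556 genes 0.27% were called higher and 42.5% lower, with a median of 0.532. Below the limit *Hbb-y* had 2.20, *Hbb-bh1* 1.25 and *Hba-x* 1.72, and only *Hbb-y* passed 2. Without the exceptional cell *Hbb-y* had 1.36 (1.27–1.47) and *Hba-x* 1.09 (0.819–1.44), so that cell decided the call of *Hbb-y*. Without cells of at least 10 *Hbb-bh1* UMIs *Hbb-bh1* had 1.08 (0.980–1.19).

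Most of the other globin genes of the table, 7 in number, were higher in the later stages. From S0-low to S1 all 5 with enough UMIs were called higher, beside 3.63% of all genes. *Hbq1b*, an α-like gene of unknown use, led at 8.56 (5.98–12.3), and *Hba-a1* had 4.13. Below the limit no adult gene in S0-low exceeded its hepatocyte-like level, with *Hbb-bs* at 5929 against 6246 CPM. From S1 to S3 the same 5 were called, beside 4.31% of all genes. From S3 to S4/S5 only *Hbq1a* of 7 was called, beside 0.27%, and *Hbq1b* was lower, at 0.662 times (0.603–0.728).

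Regulators known from globin switching were given by a list of 24 genes. From S0-low to S1, 3 were called higher (*Klf1*, an activator of the adult β-globin gene, *Sox6* and *Zbtb7a*, repressors of embryonic or fetal globin) and 6 lower (*Myb*, *Gata2*, *Igf2bp3*, *Hmga2*, *Klf2* and *Ehmt2*). Over all genes 3.63% were called higher and 20.3% lower, and the median ratio of the list was 0.868 beside 0.840. From S1 to S3, 0 of 20 were higher and 12 lower, beside 4.31% and 61.3% of all genes, with a median of 0.361 beside 0.416. From S3 to S4/S5, 0 of 18 were higher and 11 lower, beside 0.27% and 42.5%, with a median of 0.446 beside 0.532.

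Against the other 857 S4/S5 cells, the 79 embryonic-globin cells had less adult β-globin, by which they were chosen, and in CPM also less adult α-globin. The mean CPM was 32024 against 349928 for *Hbb-bs* (ratio 0.0915) and 27494 against 142351 for *Hbb-bt* (0.193), both of which the choice of cells used. It was 65220 against 81301 for *Hba-a1* (0.802, 0.792–0.813) and 40735 against 70608 for *Hba-a2* (0.577, 0.568–0.586). Summed, the adult α-globin level was 0.697 times (0.690–0.705) that of the other S4/S5 cells. In UMIs per cell the median of *Hba-a1* was 344 against 317, and of *Hba-a2* 202 against 271. The lower adult α-globin held against S4/S5 only. Against the other S3 cells *Hba-a1* was higher in CPM, at 1.10 times (1.09–1.12), and *Hba-a2* lower, at 0.870 times (0.856–0.885).

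In CPM, erythroid marker genes were lower in the 79 cells than in the other S4/S5 cells, but so were most genes. The median ratio of all 3089 genes with enough UMIs was 0.481. Globin genes took a larger share of the UMIs of the 79 cells, and the part of this was not tested. *Slc4a1* had 147 against 545 CPM (0.270, 0.208–0.350), *Alas2*, the erythroid enzyme of haem synthesis, 0.314 times and *Tfrc*, which encodes CD71, 0.109 times. Of 12 regulators with enough UMIs 0 were at least 2 times higher and 6 at most 0.5 times, with a median of 0.485, beside 1.62% and 52.8% of 3089 genes and a median of 0.481. *Klf1* had 50.4 against 273 CPM (0.185, 0.121–0.283), *Gata1*, the erythroid master factor, 0.253 times (0.132–0.486) and *Dnmt1*, the maintenance DNA methyltransferase, 1 UMI against 118 (0.0234 times, 0.00327–0.168). *Tal1*, an erythroid transcription factor, had 142 against 88.4 CPM (1.61, 1.21–2.14). *Bcl11a*, a repressor of embryonic and fetal globin, had 11 UMIs and 0.619 times the level (0.301–1.27), a difference not detectable at this depth. Against the other S3 cells *Tal1* was lower, at 0.671 times (0.511–0.880), as was *Bcl11a*, at 0.359 times (0.178–0.723). The median of 4814 genes was 0.263 there, and 80.8% of them were at most 0.5 times.

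*Sox6*, which represses *Hbb-y*, had 0 UMIs in the 79 cells, of 421486 UMIs in all. A count of 0 allows up to 7.12 CPM (3 counts over the group), against 62.8 CPM in the other S4/S5 cells pooled. The cells were chosen by their globin and differ from S4/S5 in maturity markers as well, and the part of each was not tested.

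The genes whose pattern was most like a member's were read as a description over 10 populations and over cells, which share 1 library. Over 10 populations *Hbb-y* was most like *Hba-x* (r = 0.985), then *Adipor1*, *Hsd3b6*, *Tmcc2* and *St3gal5* (0.889–0.898). *Hba-x* was most like *Hbb-y*, *Hsd3b6*, *Bsdc1*, *Fbxo34* and *Adipor1*, and *Hbb-bh1* like *Dapk2* (0.994), *Cfap57*, *Nusap1*, *Unc5cl* and *Yipf4*. Over the 6424 lineage-low cells *Hbb-y* went with *Hba-x* (0.685), *Hbb-bh1* (0.394), *Hsd3b6* (0.382), *Fam174b* (0.370) and *Pdzk1ip1* (0.364). *Hba-x* added *Tuba1a* (0.395). *Hbb-bh1* went with the adult genes *Hba-a2* (0.492), *Hba-a1* (0.482), *Hbb-bt* (0.468) and *Hbb-bs* (0.455) and with *Alas2* (0.450).

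The embryonic-globin cells carried the likeness of *Hbb-y* and *Hba-x*. Without them the gene most like *Hbb-y* over cells was *Hbb-bs*, at 0.405. *Fam174b* had 74 UMIs in 38 of the 79 cells and 3 UMIs in the other S4/S5 cells, 188 against 0.647 CPM, a ratio of 291 (77.5–1090). *Tuba1a*, an α-tubulin gene, had 426 against 5.34 CPM (79.7, 49.6–128), *Pdzk1ip1* 495 against 30.4 (16.3, 12.8–20.8) and *Hsd3b6* 582 against 39.3 (14.8, 12.0–18.4). *Adipor1* was lower, at 0.280 times, beside a median of 0.481 over all genes with enough UMIs. The exceptional cell had 0 UMIs of *Fam174b* and *Hsd3b6* and 1 of *Tuba1a* and *Pdzk1ip1*. These genes were found through their likeness to the members in the same cells, so their ratios are no independent test.

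**Figure D5:**
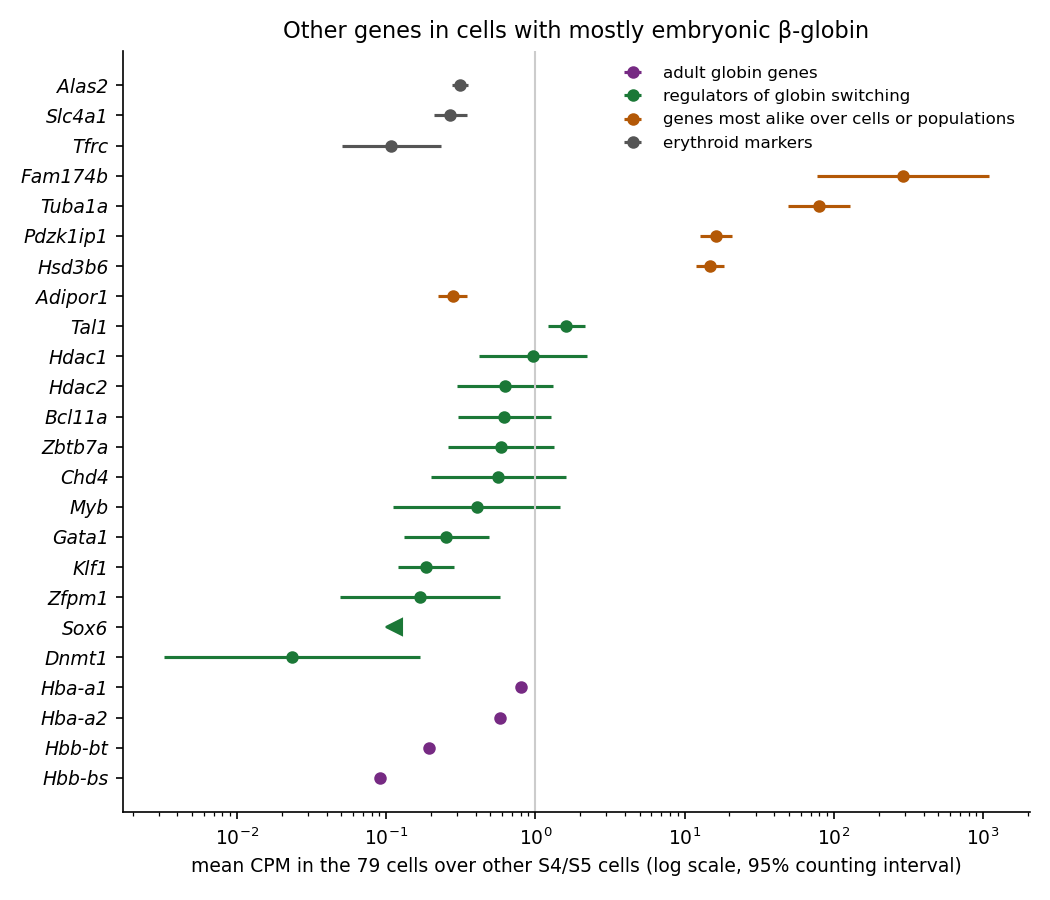
Mean CPM in the 79 embryonic-globin cells over that in the other S4/S5 cells (log axis, 95% counting intervals), grouped as adult globin genes, regulators, genes most like a member and erythroid markers; the triangle marks *Sox6*, at 0 UMIs, at its upper limit. *Fam174b* and *Tuba1a* lie farthest to the right and *Hbb-bs* and *Dnmt1* to the left.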

How the data were processed

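The cDNA reads of the 10x Single Cell 3′ library were mapped by the authors to mm10 with Cell Ranger, and the deposited matrix holds raw UMI counts per gene and cell, before their doublet and quality filters. The antibody reads were assigned by the authors with CITE-seq-Count and deposited as raw counts of 10 antibodies per cell; whether equal UMIs were collapsed is not given in the sources used here. The 2 samples of the series are these libraries of the same cells. The members and gene lists were chosen with earlier results of these data known.

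The study's quality limits were applied: cells needed 300 to 5000 genes and no more than 9% of UMIs from mitochondrial genes (508 failed). With Scrublet's approach and 6% doublets assumed, 128 cells (1.63%) were called and removed. The gate positions are not given, so stages were rebuilt: lineage-low cells had at most 95.8 summed counts of 5 lineage antibodies (the median plus 2 scaled median absolute deviations), and k-means on the centered log ratio across cells gave 3 Ter119 classes, 3 CD71 classes at low and 2 at high Ter119. Ter119 counts were 0 to 24, 25 to 88 and 89 to 549. At low Ter119, CD71 was at most 233 in S0-low, 234 to 761 in S0-medium and at least 769 in S1. S2 had intermediate Ter119 and at least 765 CD71, S3 at least 750 and S4/S5 at most 742.

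Clusters used 2000 variable genes without globin genes, 16 principal components, 30 neighbours and Leiden at 0.8. Each cell had first been scaled to its total UMIs, globin included. By a rule set after the clusters were seen, a name needed 3 of a type's markers among the 10 genes highest by fold. Mean CPM is the mean over cells; UMIs per cell have exact Poisson intervals, and shares exact Clopper-Pearson intervals. With 1 library no test was made. Ratios were called at 2 or 0.5 among genes with at least 50 UMIs. Their intervals weight each UMI by its cell's depth, in place of the interval of summed UMIs that was planned: on simulated counts of S3 over S2 (12179 genes, 200 changed by 4-fold) the weighted interval held the true ratio for 186 of 200 and the planned one for 181. The intervals are thus somewhat narrow even for counting error. All simulated cells of a stage shared 1 expression profile, so the simulation does not show how narrow they are for genes spread unevenly over cells. All 200 were recovered, and 239 of 6718 unchanged genes also passed the limit. Likeness is Pearson's r of log2(mean CPM + 10) over populations and of ln(1 + UMIs per 10000) over cells, among genes with at least 100 UMIs. The named genes are the members, the other globin genes, the regulators, the 5 genes most like each member by either measure, and fixed markers. Positions are those of the RefSeq GRCm38.p6 gene table, matched by symbol, and transcripts from GENCODE M1.

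Versions were scanpy 1.11.5, leidenalg 0.10.2, scikit-learn 1.9.0, scipy 1.17.1, numpy 2.4.6, pandas 2.3.3 and matplotlib 3.10.9 on Python 3.11.15, with seed 7.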

Additional observations from a re-analysis of the deposited data

Results flagged for a closer look

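Signal of the members appeared in cells that the comparisons leave out. The 23 cells with under 300 genes averaged 345885 CPM of *Hbb-y*, 2082 CPM of *Hbb-bh1* and 12215 CPM of *Hba-x*, above the level of the hepatocyte-like cells. At least 50% of the β-globin UMIs were embryonic in 12 of these 23 cells (52.2%, 30.6–73.2), against 41 of 898 S4/S5 cells. The gene limit thus removed 12 of the 93 cells of this kind in the whole table, and 11 of the 23 had 1.36 *Hbb-y* UMIs per cell (0.763–2.25).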

How the results depend on the processing

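No paired analysis was possible because there is 1 cDNA library. All alternatives kept the direction of the S3 over S0-low ratios, which were 6.70, 32.4 and 7.98 for *Hbb-y*, *Hbb-bh1* and *Hba-x*, with 4.18% of β- and 0.567% of α-globin UMIs embryonic in S3. In that order, log10 antibody counts gave 7.49, 20.5, 10.8, 4.70% and 0.664%, the centered log ratio within cells 13.1, 24.9, 20.1, 6.15% and 0.910%, and a Gaussian mixture 7.25, 23.8, 10.3, 4.01% and 0.538%. Leaving out border cells gave 5.66 for *Hbb-y*, 4.24% and 0.614%. No lineage limit gave 8.53 for *Hbb-y*, 9.76 for *Hba-x* and 4.31%, and no quality limits 7.62, 8.99 and 4.34%. Keeping doublets gave 4.25%. Without the non-erythroid clusters the ratios were 4.83, 25.3 and 5.73, and without the 79 embryonic-globin cells 2.25, 85.7 and 5.16, with 0.535% and 0.0260%. Summed UMIs gave 12.1 for *Hbb-y* and 15.97 for *Hba-x*, and UMIs per cell 8.46, 24.5 and 11.2. Globin genes out of the denominator gave 6.30 and 15.5 for the β-like genes, and subtracting the hepatocyte-like level 7.25 and 46.9.

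Alternatives chosen after the data were seen gave 1.54, 51.3 and 3.46 in UMIs per cell without the 79 cells, and 15.5 for *Hbb-bh1* also without cells of at least 10 *Hbb-bh1* UMIs. A 40% limit, which leaves out 1 more cell, moved *Hbb-y* in S4/S5 from 4.64 to 2.05 UMIs per cell and *Hba-x* from 0.265 to 0.121. Without cells of at least 10 *Hbb-bh1* UMIs, *Hbb-bh1* fell below *Hbb-y*, at 0.507 UMIs for each *Hbb-y* UMI in S2, 0.688 in S3 and 0.236 in S4/S5 (0.554 also without the exceptional cell). Other clusterings moved the mean in non-erythroid cells from 301 to between 278 and 473 CPM for *Hbb-y*. Counts of genes past 2-fold stayed within 1.5 times. The causes of these shifts were not tested. The depth limits *Hba-x* most, at under 0.3 UMIs per cell outside the 79 cells, and 1 pool of embryos without replicates limits all values.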
